A study of Bos taurus with 12 samples.

Results

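The end of an adipogenic course, 9 d after induction, was set against uninduced cells at 0 d. The comparison took the 3 libraries of 9 d and the 3 libraries of 0 d by the day in their sample labels, 6 of the 12 libraries of the series. The cells were preadipocytes, the precursors of fat cells, from newborn Qinchuan cattle, isolated from longissimus dorsi. At 0 d they had received no cocktail. By 9 d they had been given IBMX (which blocks the breakdown of cyclic AMP), dexamethasone (a synthetic glucocorticoid) and insulin, followed by insulin alone. The labels and the paper give different doses of insulin and dexamethasone, and the labels describe poly(A) selection where the paper describes removal of rRNA. The paper speaks of biological replicates and of a single batch of cells for all days, and the labels do not say whether the 3 libraries of a day came from separate animals or cultures, so the p-values below measure only the spread between these samples.

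Of 33714 rows in the mRNA table, the 15402 with a mean of at least 0.1 FPKM over the 12 libraries were tested. FPKM, fragments scaled to transcript length and library size, hold no counts, so the depth behind a single value is unknown, and the values carry 2 decimals. Log2 fold changes (log2FC) are 9 d minus 0 d on log2(FPKM + 0.1), a scale that understates the change of genes with low values. The threshold for a call is 1 in absolute log2FC, together with a limma p under 0.05 after Benjamini-Hochberg adjustment over all rows tested. The error after a fold change is the standard error of the fit, the error after a mean FPKM is the SD, and n = 3 for each day. Values of single libraries are given in the order of replicates 1, 2 and 3. Genes beyond the stated rule and the 8 planned adipocyte markers were picked from lists after their values were seen, and they describe a list without supporting it.

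Fat cells form from fibroblast-like precursors in steps. Glucocorticoid and cyclic AMP signals first induce C/EBP-beta and C/EBP-delta, which in turn induce PPAR-gamma and C/EBP-alpha, the factors that hold the adipocyte programme in place. That programme covers the uptake and synthesis of fatty acids, their esterification to triglyceride, the proteins that coat the lipid droplet, and the secretion of hormones such as adiponectin and leptin. In muscle, such precursors lie between the fibres and give rise to the intramuscular fat known as marbling, next to myogenic cells of another lineage.

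FPKM values at 9 d were far higher than at 0 d for decorin, transferrin, leptin, the triglyceride enzyme DGAT2 and the fatty acid transporter CD36. They were lower for most tested myogenic factors and sarcomere proteins, and for tenascin X and the laminin chain LAMA3. CEBPA, which encodes C/EBP-alpha, was not called, and PPARG had no row of its own. Of the 15402 rows, 1675 were called (10.9%), 525 higher (3.41%) and 1150 lower (7.47%). In 49.9% of rows no library of one day reached into the range of the other. The rises were larger: 61 of the higher genes and 28 of the lower genes exceeded an absolute log2FC of 3, and their median absolute values were 1.56 and 1.42. The mean FPKM of the higher genes summed to 32234 at 0 d and 111115 at 9 d. Those of the lower genes summed to 64034 at 0 d and 23076 at 9 d. Many changes were in faint transcripts, since 118 of the higher and 315 of the lower genes stayed under 1 FPKM on both days. At 0 d 18 of the higher genes were listed at 0 in every library, and 12 of the lower genes were listed at 0 in every 9 d library.

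The median log2FC over all rows was -0.19. Rescaling the libraries by their median ratio moved it by 0.19 to -0.01, so the median of a gene list is to be read against -0.19, not 0. List counts are to be read against the shares of all rows called, 3.41% higher and 7.47% lower. With rescaled values 1474 rows were called, 46.4% of them higher, against 31.3% of the 1675. All 525 higher genes and 790 of the 1150 lower genes were called on both scales. When each of the 6 libraries was left out in turn, 402 of the higher and 804 of the lower genes were called in every one of the 6 fits. The libraries are bulk samples, so fewer cells of a type and less RNA per cell cannot be told apart in any fall described here.

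**Figure D1:**
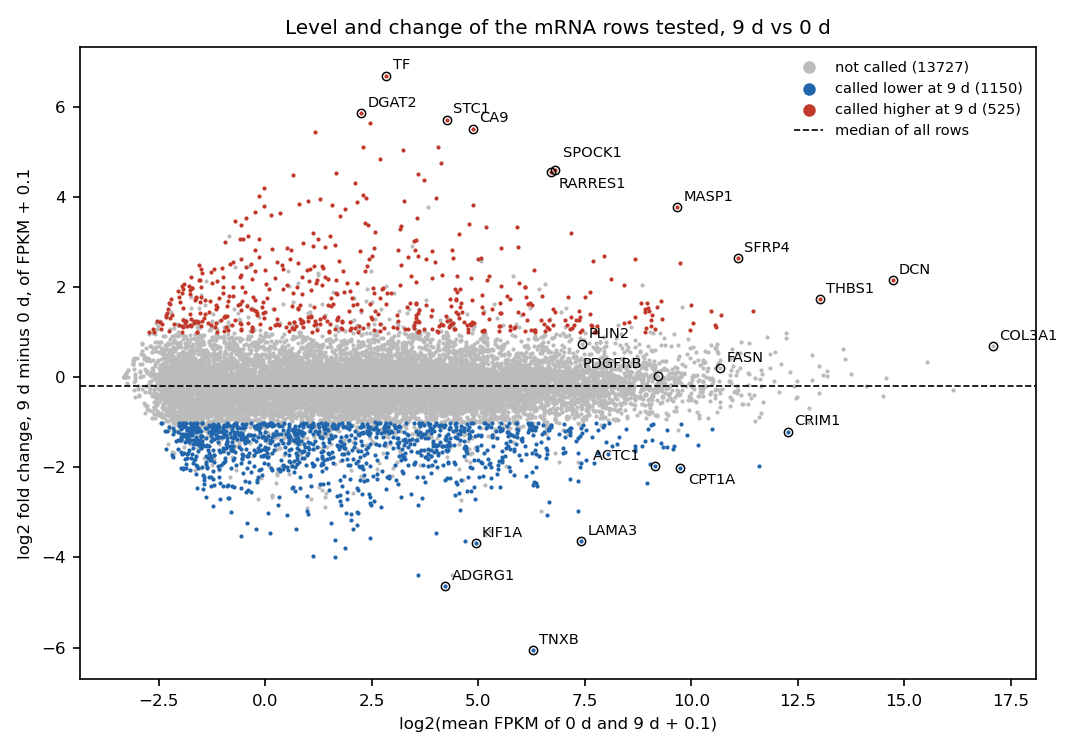
Each dot is one of the 15402 mRNA rows tested, with the log2 of its mean FPKM over 0 d and 9 d on the horizontal axis and its log2FC (9 d minus 0 d) on the vertical axis, red where called higher (525), blue where called lower (1150) and grey where not called. TF (6.70) and TNXB (-6.06) lie at the top and bottom, DCN (2.16) and THBS1 (1.74) are the highest-expressed rises that are labelled, and the dashed line marks the median of all rows.

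The label of the cells was checked against 8 genes that define adipocytes. FABP4, the fatty acid binding protein of adipocytes, had 3.36, 3.02 and 3.52 at 0 d and 7.59, 8.84 and 10.8 FPKM at 9 d, and the 2 groups did not overlap (log2FC 1.42 ± 0.12, limma adjusted p = 1.3e-05). ADIPOQ, which encodes adiponectin, had 0.01, 0.03 and 0.03 at 0 d and 0.8, 0.82 and 0.19 FPKM at 9 d, every 9 d library above 0 d and the third well below its neighbours (log2FC 2.34 ± 0.66, limma adjusted p = 0.0196). LEP, which encodes leptin, had 2.17, 2.39 and 2.47 at 0 d and 25.3, 16.6 and 19.6 FPKM at 9 d (log2FC 3.06 ± 0.41, limma adjusted p = 0.000262). CIDEC, which helps lipid droplets fuse, had 0.09, 0.1 and 0.06 at 0 d and 0.57, 0.26 and 0.39 FPKM at 9 d (log2FC 1.43 ± 0.27, limma adjusted p = 0.00234). LPL, the lipase that releases fatty acids from lipoproteins, had 4.46, 4.43 and 4.7 at 0 d and 5.96, 5.07 and 7.98 FPKM at 9 d and was not called (log2FC 0.45 ± 0.16, limma adjusted p = 0.0496). CEBPA, the gene of C/EBP-alpha, had 0.08, 0.08 and 0.12 at 0 d and 0.05, 0.05 and 0.05 FPKM at 9 d, near 0 on both days (log2FC -0.36 ± 0.14, limma adjusted p = 0.0667). ADIPOQ and CIDEC lost their calls with a pseudocount of 1. ADIPOQ lost its call without 0 d replicate 1 (adjusted p = 0.0563), 9 d replicate 1 (adjusted p = 0.0683) and 9 d replicate 2 (adjusted p = 0.0705). At 9 d the adipocyte markers with a row of their own thus stood between 0.05 FPKM (CEBPA) and 20.5 FPKM (LEP), while COL3A1, the collagen chain with the highest mean at 9 d, had 170827 FPKM.

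PPARG and PLIN1 had no row of their own in the table, and the values of the shared row naming PPARG are not reported here. The row that names PLIN1 together with PEX11A had 20.4, 27.6 and 29.0 at 0 d and 34.8, 27.9 and 37.4 FPKM at 9 d, with overlapping groups (log2FC 0.38 ± 0.18, limma adjusted p = 0.123). A value in such a row cannot be assigned to one of its genes. Of the rows tested, 711 name several genes, and 63 listed genes are found only there, so they are left out of the list counts. Shared rows that were called are given with their lists. Of the 6 adipocyte markers read alone 4 rose, at low levels, and the cultures are called by their day below. Among these 6, FABP4, ADIPOQ, LPL and CEBPA, which the rule also took, had their highest day means at 3 d.

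Among the genes of adipogenic transcription factors and their inhibitors, 22 of 27 were tested, 2 were called higher and 4 lower (against 10.9% of all rows called), with a median log2FC of -0.37 beside -0.19 for all rows. The rises were ZBTB16, a zinc finger repressor induced by glucocorticoids, and BCL6, a repressor. ZBTB16 had 0.53, 0.25 and 0.25 at 0 d and 15.6, 9.89 and 11.5 FPKM at 9 d (log2FC 4.84 ± 0.34, limma adjusted p = 3.26e-06). BCL6 had 118, 67.9 and 90.4 at 0 d and 115, 249 and 244 FPKM at 9 d, and its groups overlapped (log2FC 1.09 ± 0.34, limma adjusted p = 0.0293). The falls were ZNF423, KLF15, GATA2 and KLF2. ZNF423, which primes precursors for adipogenesis, had 57.3, 67.8 and 62.8 at 0 d and 19.2, 12 and 17.0 FPKM at 9 d (log2FC -1.98 ± 0.15, limma adjusted p = 5.77e-06). KLF15, an activator of lipid genes, went from 15.1 to 4.24 FPKM (log2FC -1.82 ± 0.14). GATA2 and KLF2, both inhibitors of adipogenesis, went from 3.77 to 1.04 FPKM and from 11.6 to 5.34 FPKM. CEBPD had the highest level of the list, 1096 ± 80.6 at 0 d and 1616 ± 154 FPKM at 9 d, and with a log2FC of 0.56 it was not called (limma adjusted p = 0.00022). CEBPB went from 278 to 409.9 FPKM (log2FC 0.57, not called). KLF4, an early activator, had 26.0, 21.1 and 29.0 at 0 d and 12.2, 13.9 and 13.6 FPKM at 9 d without overlap, short of the fold threshold (log2FC -0.92 ± 0.15, limma adjusted p = 0.000752). The row naming KLF9 beside an uncharacterised locus, KLF9 being a glucocorticoid-induced activator, went from 91.2 to 191 FPKM and was called higher (log2FC 1.07 ± 0.06). BCL6 lost its call in the fit of 6 libraries, and KLF2 with a pseudocount of 1 and after rescaling. BCL6 lost its call without 0 d replicate 2, 0 d replicate 3, 9 d replicate 2 and 9 d replicate 3 (adjusted p from 0.0647 to 0.104), and KLF4 was called without 0 d replicate 2 (log2FC -1.05).

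Of 14 tested lipid droplet genes, 2 were called higher and 1 lower, and the median log2FC was 0.40 beside -0.19 for all rows. PLIN4, a coat protein of nascent droplets, had 0.13, 0.21 and 0.18 at 0 d and 1.15, 1.2 and 1.56 FPKM at 9 d (log2FC 2.36 ± 0.16, limma adjusted p = 2.56e-06), and CIDEC, given above, was the other rise. The fall was FITM1, a protein of the endoplasmic reticulum that partitions fat into droplets and is best known from muscle, with 9.44, 8.57 and 10.2 at 0 d and 2.24, 1.81 and 1.94 FPKM at 9 d (log2FC -2.18 ± 0.11, limma adjusted p = 4.74e-07). PLIN2, the coat protein found on droplets of most cells, was the most abundant member. It had 129.9, 125 and 135 at 0 d and 216, 206 and 232 FPKM at 9 d, higher in 3 of 3 libraries, and was not called because its log2FC of 0.74 ± 0.06 lies under 1 (limma adjusted p = 8.68e-06). The row naming HILPDA, an inhibitor of the lipase ATGL, and FAM71F2 was called higher, from 3.74 to 23.6 FPKM (log2FC 2.62 ± 0.10). PLIN4 lost its call with a pseudocount of 1.

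Of 19 tested triglyceride synthesis genes 1 was called. DGAT2, which adds the last fatty acid to diacylglycerol, had 0.04, 0 and 0.18 at 0 d and 8.72, 7.51 and 11.5 FPKM at 9 d (log2FC 5.87 ± 0.31, limma adjusted p = 5.59e-07), with 1 of its 3 libraries listed at 0 at 0 d. The other 18 were not called, and the median log2FC of the list was 0.18. With limma p under 0.05 before adjustment, 6 were higher and 3 lower. DGAT1, the other enzyme of this last step and the most abundant by its mean over the 6 libraries, had 359, 381 and 388 at 0 d and 485, 488 and 437 FPKM at 9 d (log2FC 0.32 ± 0.10, limma adjusted p = 0.033). GPAM, the mitochondrial enzyme of the first step, had 2.55, 1.91 and 1.2 at 0 d and 2.98, 2.85 and 2.96 FPKM at 9 d, the 9 d values lying close together and the 0 d values spread (log2FC 0.67 ± 0.36, limma adjusted p = 0.176).

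Of 18 tested genes of fatty acid synthesis and desaturation 4 were called higher and 3 lower, with a median log2FC of 0.06. SCD, the delta-9 desaturase that makes oleic acid, had 28.3, 30.1 and 22.9 at 0 d and 92.7, 119 and 116 FPKM at 9 d (log2FC 2.01 ± 0.13, limma adjusted p = 2.11e-06). FADS2, the delta-6 desaturase, had 3.66, 1.18 and 3.73 at 0 d and 19.4, 20.2 and 12.2 FPKM at 9 d (log2FC 2.68 ± 0.38, limma adjusted p = 0.000374). SCD5, the desaturase isoform best known from brain, did the reverse with 7.61, 7.57 and 7.95 at 0 d and 1.67, 1.81 and 1.96 FPKM at 9 d (log2FC -2.03 ± 0.10, limma adjusted p = 3.98e-07). The remaining rises were the carboxylase ACACB, from 1.10 to 2.92 FPKM, and the lipogenic regulator THRSP, from 0.017 to 0.283 FPKM, and the remaining falls were the elongases ELOVL4, from 20.4 to 9.24 FPKM, and ELOVL3, which was listed at 0 in all 9 d libraries after 0.21, 0.17 and 0.22 FPKM at 0 d. FASN, the synthase that builds palmitate and the most abundant member, had 1468, 1527 and 1587 at 0 d and 1881, 1828 and 1588 FPKM at 9 d, and although all 3 values of 9 d were the higher ones its fold change was small and not called (log2FC 0.21 ± 0.08, limma adjusted p = 0.0794). ACACB, THRSP and ELOVL3 lost their calls with a pseudocount of 1, and ELOVL4 after rescaling.

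Of 12 tested genes of fatty acid uptake and binding 2 were called higher (4 after rescaling), and the median log2FC was 0.32. Before adjustment, limma gave 6 higher and 5 lower at p under 0.05. CD36, the fatty acid translocase of the plasma membrane, had 0.31, 0.31 and 0.3 at 0 d and 7.7, 7.92 and 8.6 FPKM at 9 d (log2FC 4.33 ± 0.14, limma adjusted p = 1.88e-08), the clearest rise in this group beside FABP4. VLDLR, a receptor for triglyceride-rich lipoproteins and the most abundant member, had 284, 277 and 269 at 0 d and 312, 309 and 328 FPKM at 9 d and was not called (log2FC 0.20 ± 0.05, limma adjusted p = 0.00817). SLC27A3 was called lower with a pseudocount of 0.01 and without 9 d replicate 1, and SLC27A4 without 0 d replicate 2.

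Of 17 tested genes that release stored fat or govern its release, 2 were called higher and 5 lower, with a median log2FC of -0.35. After rescaling the counts were 3 higher and 3 lower. PDE4D (log2FC 1.54) was called higher in the fit of 6 libraries only. ADORA1, the adenosine receptor that restrains lipolysis, had 5.56, 5.8 and 5.71 at 0 d and 0.75, 0.68 and 1.18 FPKM at 9 d (log2FC -2.61 ± 0.18, limma adjusted p = 3.17e-06). NPR1 and NPR3, the signalling and clearance receptors for natriuretic peptides, both fell, and NPR3, the most abundant member, had 490, 492 and 487 at 0 d and 226, 220 and 218 FPKM at 9 d (log2FC -1.14 ± 0.06, limma adjusted p = 7.12e-07). NPR1 went from 2.53 to 0.38 FPKM (log2FC -2.46 ± 0.15). MGLL, which cleaves monoglyceride, had 213, 207 and 99.1 at 0 d and 48.2, 87.4 and 119 FPKM at 9 d with overlapping groups (log2FC -1.04 ± 0.35, limma adjusted p = 0.0417). The rises were PDE3A, a phosphodiesterase that breaks down cyclic AMP, with 12.6, 12.5 and 10.8 at 0 d and 36.0, 32.8 and 37.2 FPKM at 9 d (log2FC 1.56 ± 0.09, limma adjusted p = 6.81e-07), and the lipase relative PNPLA3, from 0.067 to 0.283 FPKM. PNPLA2, the lipase ATGL that starts triglyceride breakdown, went from 1.68 to 1.2 FPKM (log2FC -0.43, not called), and LIPE, hormone-sensitive lipase, from 0.337 to 0.463 FPKM (log2FC 0.37, not called). NPR3 lost its call after rescaling, and MGLL after rescaling, without the filter, in the fit of 6 libraries and with a replicate block, and PNPLA3 with a pseudocount of 1. MGLL lost its call without 0 d replicate 1, 0 d replicate 2, 9 d replicate 1 and 9 d replicate 2 (adjusted p from 0.0736 to 0.135), and PNPLA3 lost its call without 0 d replicate 3 (log2FC 0.92).

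In fatty acid oxidation the largest called change was a fall. CPT1A, the carnitine palmitoyltransferase that admits long-chain fatty acids to mitochondria, had 1332, 1323 and 1395 at 0 d and 374, 234 and 434 FPKM at 9 d (log2FC -2.00 ± 0.19, limma adjusted p = 2.63e-05). The other calls among 22 tested members were rises of ECI1, an isomerase of the beta-oxidation spiral with 18.7, 16.2 and 18.7 at 0 d and 36.9, 36.4 and 34.7 FPKM at 9 d (log2FC 1.01 ± 0.08, limma adjusted p = 7.46e-06), and of ANGPTL4, a secreted inhibitor of LPL, from 1.32 to 2.76 FPKM. The list's median log2FC was -0.14. ECI1 and ANGPTL4 lost their calls with a pseudocount of 1. ECI1 lost its call without 0 d replicate 2 (log2FC 0.94) and 9 d replicate 1 (log2FC 0.99), and ANGPTL4 lost its call without 0 d replicate 1 (log2FC 0.94), 9 d replicate 1 (log2FC 0.96) and 9 d replicate 3 (log2FC 0.92).

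Thermogenic genes were faint. Of 12 listed, 4 passed the filter, and UCP2, an uncoupling protein found in many cells, was the one called, with 9.33, 8.38 and 8.85 at 0 d and 2.88, 3.44 and 3.1 FPKM at 9 d (log2FC -1.47 ± 0.10, limma adjusted p = 2.1e-06). UCP1, the protein of brown fat that makes heat, lay under the filter with 0, 0.03 and 0.04 at 0 d and 0, 0.05 and 0 FPKM at 9 d. At an unadjusted limma p under 0.05 the counts were 0 higher and 2 lower.

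Secreted adipokines were the lipid-related list with the largest share of rises among tested members in the main fit. That rank rests in part on ADIPOQ and C1QTNF1, which both lost their calls without 9 d replicate 1 and without 9 d replicate 2. Of 11 tested hormones and receptors, 5 were called higher and 1 lower, and the median log2FC was 0.35. C1QTNF3, a C1q/TNF-related protein, had 4.76, 4.5 and 4.46 at 0 d and 47.2, 51.2 and 51.1 FPKM at 9 d (log2FC 3.42 ± 0.12, limma adjusted p = 3.62e-08). APLN, the apelin peptide, went from 58.8 to 352 FPKM (log2FC 2.59 ± 0.27), and ADIPOQ and LEP are given above. C1QTNF1, the most abundant member, had 275, 206 and 187 at 0 d and 732, 1194 and 374 FPKM at 9 d, its 9 d libraries differing widely from each other (log2FC 1.65 ± 0.46, limma adjusted p = 0.0176). RBP4, the retinol carrier of blood, was the fall with 9.76, 7.0 and 7.96 at 0 d and 4.58, 4.49 and 3.06 FPKM at 9 d (log2FC -1.02 ± 0.28, limma adjusted p = 0.016). Of 22 listed genes with a row of their own, those not among the 11 lay under the filter. There CFD had 0.16, 0.2 and 0.13 at 0 d and 0.1, 0 and 0 FPKM at 9 d. C1QTNF6 had 0.2, 0.2 and 0.23 at 0 d and 0.11, 0.1 and 0.08 FPKM at 9 d. The rest under the filter had at most 0.07 FPKM in any of the 6 libraries, and RETN was listed at 0 in all 6 libraries. RBP4 lost its call with a pseudocount of 1 and after rescaling. C1QTNF1 lost its call without 0 d replicate 3 (adjusted p = 0.0552), 9 d replicate 1 (adjusted p = 0.0511) and 9 d replicate 2 (adjusted p = 0.0652), and RBP4 lost its call without 0 d replicate 1 (adjusted p = 0.0593) and 9 d replicate 3 (adjusted p = 0.0595).

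Among genes that handle retinoids, RBP4 was the one fall and RARRES1, a gene named for its response to retinoic acid, the one rise of 13 tested, and the median log2FC was -0.13. RARRES1 had 8.75, 7.35 and 8.9 at 0 d and 195, 211 and 193 FPKM at 9 d (log2FC 4.57 ± 0.10, limma adjusted p = 3.75e-09). ALDH1A3, which makes retinoic acid and was the most abundant member, had 365, 339 and 713 at 0 d and 500, 496 and 523 FPKM at 9 d, with the third 0 d library above every 9 d library (log2FC 0.19 ± 0.23, limma adjusted p = 0.584). Its log2FC was -0.01 without 0 d replicate 2.

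**Figure D2:**
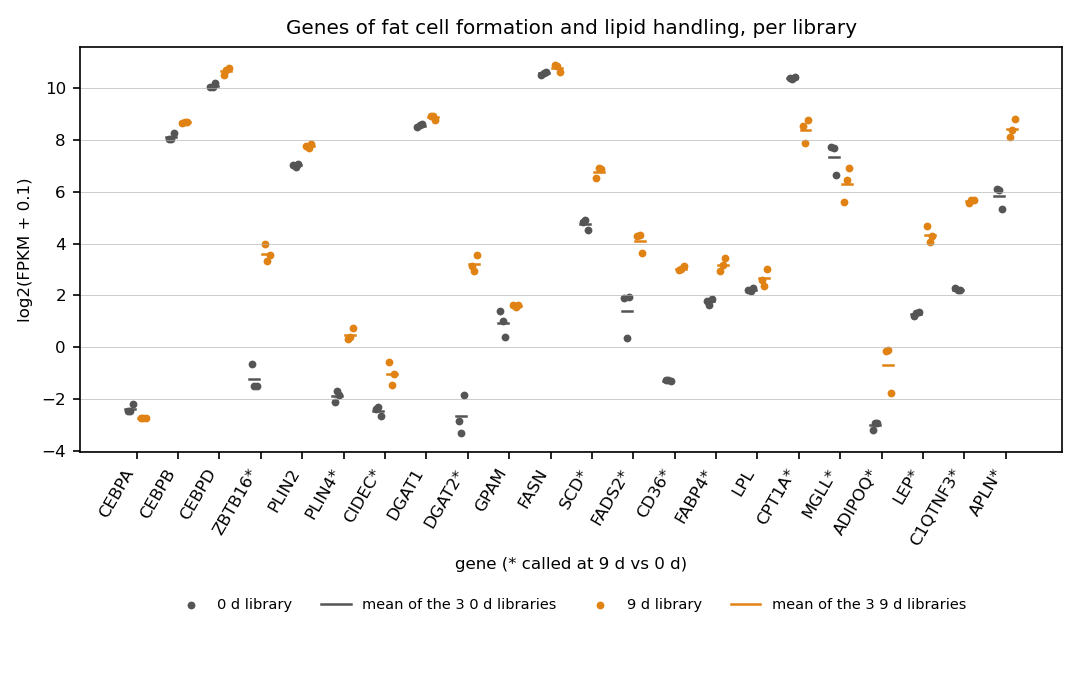
Single libraries (dots) and their means (bars) at 0 d in grey and 9 d in orange, as log2(FPKM + 0.1), for genes of fat cell formation and lipid handling, with a star on called genes. DGAT2, CD36, LEP and ADIPOQ have 9 d libraries above all 0 d libraries, CPT1A has them below, and CEBPA stays near the bottom of the scale on both days.

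Some targets of the inducing agents were called at 9 d, although the cocktail had been replaced by insulin alone. Of 17 tested glucocorticoid targets 7 were called higher and 1 lower, beside 3.41% and 7.47% of all rows. The other 9 were not called, and the median log2FC was 0.67 beside -0.19 for all rows. ZBTB16, the largest rise, is given above. FKBP5, a co-chaperone of the glucocorticoid receptor, had 0.5, 0.48 and 0.29 at 0 d and 4.65, 8.5 and 2.24 FPKM at 9 d (log2FC 3.15 ± 0.76, limma adjusted p = 0.00874). ERRFI1, an inhibitor of EGF receptors, went from 28.4 to 262 FPKM (log2FC 3.20 ± 0.09). FAM107A, an actin-bundling protein induced by stress, went from 0.463 to 8.27 FPKM (log2FC 3.89 ± 0.12). MT2A, a metallothionein, went from 3.05 to 11.2 FPKM, and SDS, serine dehydratase, from 0.09 to 1.05 FPKM. MAOA, the monoamine oxidase with the highest level of the list, had 282, 265 and 231 at 0 d and 744, 767 and 739 FPKM at 9 d (log2FC 1.54 ± 0.06, limma adjusted p = 1.31e-07). At 3 d the mean was 4216 FPKM for MAOA and 282 FPKM for ZBTB16, both above their 9 d values. The other called rises of this list were not followed over the days here. Against this, SGK1, a kinase that glucocorticoids and serum induce, was the fall with 83.4, 80.5 and 88.6 at 0 d and 20.5, 21.1 and 21.3 FPKM at 9 d (log2FC -2.00 ± 0.08, limma adjusted p = 5.94e-08). FKBP5 and SDS lost their calls with a pseudocount of 1.

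Cyclic AMP targets had a median log2FC of 0.72, and 13 of 16 lay above the median of all rows. Of all rows, 3.41% were called higher. The called members were 3, each higher: the AP-1 subunit JUNB with 16.5, 16.6 and 18.4 at 0 d and 50.0, 49.2 and 52.8 FPKM at 9 d (log2FC 1.56 ± 0.07, limma adjusted p = 2.23e-07), the nuclear receptor NR4A1, which went from 62.0 to 134 FPKM (log2FC 1.11 ± 0.10), and the kinase SIK1, from 62.2 to 127 FPKM (log2FC 1.04 ± 0.13). With limma p under 0.05 before adjustment, 10 were higher and 2 lower. DUSP1, a phosphatase of MAP kinases and the most abundant member, had 283, 263 and 299 at 0 d and 446, 461 and 437 FPKM at 9 d without overlap and was not called (log2FC 0.67 ± 0.07, limma adjusted p = 4.64e-05). After rescaling, 5 members were called higher. PDE4D, not called in the main fit (log2FC 1.54), was called higher in the fit of 6 libraries (limma adjusted p = 0.00278). SIK1 lost its call without 0 d replicate 1 (log2FC 0.95), 0 d replicate 2 (log2FC 0.98) and 9 d replicate 3 (log2FC 0.97).

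Of 16 tested FOXO factors and targets 2 were called higher and 3 lower, with a median log2FC of -0.28. TXNIP, which binds thioredoxin and limits glucose uptake, was both the largest rise and the most abundant member, with 291, 293 and 303 at 0 d and 856, 874 and 891 FPKM at 9 d (log2FC 1.56 ± 0.05, limma adjusted p = 1.6e-08). SESN2, a sestrin induced by stress, fell with 7.83, 9.25 and 6.47 at 0 d and 2.4, 1.67 and 3.19 FPKM at 9 d (log2FC -1.69 ± 0.20, limma adjusted p = 0.000142). PELI2, a ubiquitin ligase of the Pellino family, had 0.39, 0.39 and 0.44 at 0 d and 0.1, 0.1 and 0.12 FPKM at 9 d (log2FC -1.29 ± 0.11, limma adjusted p = 1.41e-05), and DEPP1 went from 1.16 to 0.31 FPKM. FOXO1, an inhibitor of early adipogenesis that insulin holds in check, had 5.36, 5.34 and 5.07 at 0 d and 3.7, 3.51 and 3.3 FPKM at 9 d without overlap and was not called (log2FC -0.57 ± 0.07, limma adjusted p = 9.71e-05). SESN3 went from 51.6 to 64.2 FPKM (log2FC 0.32 ± 0.07, not called). BCL6 was the other rise. PELI2 and DEPP1 lost their calls with a pseudocount of 1.

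In the insulin and IGF list, of 12 tested binding proteins and their partners 4 were called higher, against 1 higher and 1 lower of 7 receptors and adaptors, and over all 21 members the median log2FC was 0.00. STC1, a secreted glycoprotein that inhibits the IGFBP protease PAPPA, had 0.66, 0.57 and 0.6 at 0 d and 37.9, 40.4 and 34.3 FPKM at 9 d (log2FC 5.73 ± 0.37, limma adjusted p = 1.89e-06). PAPPA itself went from 17.2 to 36.7 FPKM (log2FC 1.08 ± 0.18). IGFBP2 went from 4.30 to 18.9 FPKM (log2FC 2.11 ± 0.08) and IGFBP7 from 6.35 to 17.3 FPKM (log2FC 1.43 ± 0.09). IGF2, the fetal growth factor, fell with 569, 615 and 628 at 0 d and 287, 165 and 199.6 FPKM at 9 d (log2FC -1.51 ± 0.32, limma adjusted p = 0.0042). The adaptor IRS1 went from 2.04 to 0.85 FPKM, while the adaptor SH2B2 went from 0.967 to 2.46 FPKM. IGFBP5, the most abundant member, had 596, 599 and 592 at 0 d and 1089, 2526 and 451 FPKM at 9 d, spread so widely at 9 d that the groups overlapped (log2FC 0.85 ± 0.46, limma adjusted p = 0.185). The receptor INSR went from 32.5 to 22.8 FPKM (log2FC -0.51, not called). IRS1 lost its call with a pseudocount of 1 and after rescaling, and SH2B2 with a pseudocount of 1. IGFALS, of the binding proteins, was not called in the main fit (log2FC -2.38). It was called lower in the fit of 6 libraries (limma adjusted p = 0.0002) and with a pseudocount of 1 (limma adjusted p = 0.0008). PAPPA lost its call without 0 d replicate 3 (log2FC 0.998) and 9 d replicate 3 (log2FC 0.91), and IGFBP5 was called without 9 d replicate 3 (log2FC 1.48).

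COL3A1, the chain of type III collagen, had the highest mean FPKM of all rows on both days, with 105377, 102820.3 and 109333 at 0 d and 173652, 163376 and 175454 FPKM at 9 d, and its log2FC of 0.69 ± 0.04 was under the threshold (limma adjusted p = 1.29e-06). The 9 tested fibrillar collagens summed to 121988, 119192 and 125030.0 FPKM at 0 d and 196653, 183397 and 196086 FPKM at 9 d, every 9 d library being above 0 d, with a median log2FC of 0.62. COL5A3, a minor type V chain, was the called member and was lower, with 8.04, 7.96 and 8.21 at 0 d and 3.25, 3.37 and 5.39 FPKM at 9 d (log2FC -1.03 ± 0.20, limma adjusted p = 0.00243). Before adjustment, limma gave 8 higher and 1 lower at p under 0.05. After rescaling 2 were called higher and COL5A3 was no longer lower. COL1A1 and COL1A2, the chains of type I collagen, had log2FC values of 0.17 and 0.40. Among 16 collagens of type VI and of fibril surfaces the calls were 3 falls of faint members, and the median log2FC was -0.30. They were COL17A1, from 0.673 to 0.103 FPKM, COL21A1, from 0.533 to 0.08 FPKM, and LOC530102, which RefSeq gives as a name of COL6A6, from 0.503 to 0.03 FPKM (log2FC -2.21 ± 0.12). COL12A1, the most abundant, went from 3889.6 to 2678 FPKM (log2FC -0.54 ± 0.05, not called). COL5A3 lost its call with a pseudocount of 1 and after rescaling, and COL17A1, COL21A1 and LOC530102 with a pseudocount of 1. COL5A3 lost its call without 9 d replicate 1 (log2FC -0.90) and 9 d replicate 2 (log2FC -0.93).

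Basement membrane genes went both ways. Of 24 tested components 3 were called higher and 3 lower, beside 3.41% and 7.47% of all rows. The median log2FC was 0.32, and after rescaling 5 were higher and 3 lower. LAMA3, an alpha chain of epithelial laminins, had 322, 325 and 300.1 at 0 d and 21.0, 25.3 and 30.6 FPKM at 9 d (log2FC -3.63 ± 0.33, limma adjusted p = 2e-05). LAMA5, an alpha chain of mature basement membranes, went from 402 to 124 FPKM (log2FC -1.70 ± 0.06), and COL15A1, a collagen that links basement membrane to fibrils, from 270 to 72.2 FPKM (log2FC -1.91 ± 0.09). NID2, a nidogen that bridges laminin and type IV collagen, had 369, 370.3 and 365 at 0 d and 936, 859.8 and 905 FPKM at 9 d (log2FC 1.29 ± 0.06, limma adjusted p = 1.99e-07), and COL4A2, a type IV chain, went from 6.45 to 13.7 FPKM. LAMA4, the alpha chain that adipocytes and muscle share, went from 1685 to 2914 FPKM (log2FC 0.79, not called). SPARC, which binds collagen and was the most abundant member, had 5961, 5664 and 6148 at 0 d and 5616, 5599 and 5589 FPKM at 9 d (log2FC -0.08 ± 0.04, limma adjusted p = 0.117), and its log2FC was 0.12 after rescaling. COL4A2 lost its call with a pseudocount of 1.

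Small leucine-rich proteoglycans, which bind collagen fibrils, rose more in summed FPKM than any other list but the fibrillar collagens. The mean FPKM of 11 tested members summed to 13896 at 0 d and 48599 at 9 d, almost all of it from decorin. DCN had 10152, 9343 and 10352 at 0 d and 44166, 44061 and 45164 FPKM at 9 d (log2FC 2.16 ± 0.04, limma adjusted p = 2.83e-09). LUM, lumican, went from 216 to 683 FPKM (log2FC 1.67 ± 0.06). ECM2 was the one fall, with 201, 183 and 166 at 0 d and 60.2, 49.2 and 130.1 FPKM at 9 d (log2FC -1.33 ± 0.29, limma adjusted p = 0.00473), and the other 8 were not called, among them biglycan, BGN, with a log2FC of 0.15. The list's median log2FC was -0.14.

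Matricellular and adhesive glycoproteins went both ways: of 28 tested, 5 were called higher and 7 lower, with a median log2FC of -0.16 (6 higher and 5 lower after rescaling). TNXB, tenascin X, a large protein that ties collagen fibrils together, had 159, 164 and 139.7 at 0 d and 1.93, 2.3 and 2.4 FPKM at 9 d (log2FC -6.06 ± 0.11, limma adjusted p = 2.83e-09), the largest fall that the rule chose. The other 2 tested tenascins were not called, and TNC, the abundant one, went from 3957 to 4856 FPKM (log2FC 0.29). THBS1, thrombospondin 1, which activates latent TGF-beta, had 3881, 3823 and 3764 at 0 d and 13047, 13239 and 12021 FPKM at 9 d (log2FC 1.74 ± 0.06, limma adjusted p = 2.39e-08). TGFBI, an integrin ligand induced by TGF-beta, went from 66.4 to 431 FPKM (log2FC 2.70 ± 0.07). SPP1, osteopontin, had 0.72, 0.68 and 0.38 at 0 d and 5.84, 7.32 and 3.02 FPKM at 9 d (log2FC 2.94 ± 0.38, limma adjusted p = 0.000224). NOV, a member of the CCN family, had 1392, 1314 and 1379 at 0 d and 529, 536 and 615 FPKM at 9 d (log2FC -1.28 ± 0.07, limma adjusted p = 5.66e-07). EFEMP1, a fibulin of elastic tissue, went from 86.7 to 31.0 FPKM (log2FC -1.48 ± 0.09). Fibronectin (FN1) went from 3398 to 6228 FPKM (log2FC 0.87, not called). MFGE8, lactadherin, an integrin-binding glycoprotein that is in none of the lists, was among the 6 largest called rises in mean FPKM, with 1480.2, 1471 and 1508 at 0 d and 4349, 3892 and 4165 FPKM at 9 d (log2FC 1.47 ± 0.06, limma adjusted p = 1.58e-07). FN1 was called after rescaling.

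Among 12 tested fibre components 2 were called higher and 5 lower (median log2FC -0.98), and among 11 cross-linking and collagen hydroxylase genes 2 were higher and 1 lower (median 0.50). MFAP4, a microfibril protein, had 3.43, 3.27 and 3.53 at 0 d and 0.34, 0.32 and 0.38 FPKM at 9 d (log2FC -2.98 ± 0.15, limma adjusted p = 4.94e-07). FBN2, fibrillin 2, went from 2.88 to 0.447 FPKM (log2FC -2.45 ± 0.12), and LTBP4, a latent TGF-beta binding protein, from 46.5 to 13.0 FPKM (log2FC -1.84 ± 0.10). EMILIN2, a glycoprotein of elastic fibres, had 2164, 1745 and 2006 at 0 d and 876, 754 and 1035 FPKM at 9 d (log2FC -1.16 ± 0.14, limma adjusted p = 0.000152). MFAP5 did the reverse, from 18.3 to 74.8 FPKM (log2FC 2.02 ± 0.07). P4HA3, a prolyl hydroxylase of collagen, had 7.8, 7.31 and 7.98 at 0 d and 39.7, 35.4 and 36.6 FPKM at 9 d (log2FC 2.26 ± 0.08, limma adjusted p = 2.89e-08), and its relative P4HA1 went from 34.6 to 103 FPKM. The lysyl oxidase LOXL4 was the fall of this role, from 64.7 to 29.0 FPKM. After rescaling the counts were 5 higher and 4 lower. LOXL2, a lysyl oxidase and the most abundant member, went from 6098 to 8623 FPKM (log2FC 0.50 ± 0.07, not called). EMILIN2 and LOXL4 lost their calls after rescaling.

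Of 29 tested matrix proteases and inhibitors 5 were called higher and 6 lower, and the median log2FC was -0.23. After rescaling, 8 were higher and 4 lower. MMP2, the gelatinase that cleaves type IV collagen, had 891, 902 and 942 at 0 d and 2470.4, 2309.7 and 2388 FPKM at 9 d (log2FC 1.39 ± 0.06, limma adjusted p = 9e-08). TIMP1, an inhibitor of such proteases, went from 752 to 2087 FPKM (log2FC 1.47 ± 0.08), while TIMP2, the most abundant member, went from 7495 to 8904 FPKM (log2FC 0.25 ± 0.05, not called). TIMP3, the inhibitor bound to matrix, went from 127 to 52.7 FPKM (log2FC -1.26 ± 0.35). ADAMTS4, an aggrecanase, had 12.2, 12 and 15.8 at 0 d and 58.0, 64.7 and 57.4 FPKM at 9 d (log2FC 2.17 ± 0.12, limma adjusted p = 7.24e-07), and ADAMTS16 had 9.84, 9.82 and 9.58 at 0 d and 1.13, 1.23 and 1.5 FPKM at 9 d (log2FC -2.84 ± 0.17, limma adjusted p = 1.2e-06). TIMP3 lost its call without 0 d replicate 1 (adjusted p = 0.0542), 0 d replicate 3 (adjusted p = 0.0512) and 9 d replicate 2 (adjusted p = 0.0578).

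Integrins, the receptors that bind these proteins, went both ways. Of 19 tested subunits 3 were called higher and 5 lower, with a median log2FC of 0.10 (4 and 4 after rescaling). ITGA7, the laminin receptor subunit of muscle, went from 124 to 28.9 FPKM (log2FC -2.10 ± 0.05), ITGA3 from 22.6 to 8.08 FPKM, ITGA6 from 1.11 to 0.49 FPKM and ITGB4 from 3.36 to 1.29 FPKM. ITGB6, an epithelial subunit, had 7.53, 6.1 and 4.05 at 0 d and 0.72, 0.74 and 0.7 FPKM at 9 d (log2FC -2.83 ± 0.21, limma adjusted p = 4.43e-06). The rises were ITGA8 with 2.88, 2.53 and 2.36 at 0 d and 8.53, 7.91 and 8.26 FPKM at 9 d (log2FC 1.64 ± 0.08, limma adjusted p = 2.5e-07), ITGA11, the collagen receptor subunit of fibroblasts, from 22.8 to 47.3 FPKM, and ITGB8, from 41.4 to 99.1 FPKM. ITGB5, the most abundant subunit, went from 624 to 712 FPKM (log2FC 0.19 ± 0.06, not called). ITGA6 lost its call with a pseudocount of 1 and after rescaling, and ITGB4 with a pseudocount of 1. ITGA6 lost its call without 0 d replicate 2 (log2FC -0.99) and 9 d replicate 1 (log2FC -0.93).

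Of 18 tested contractile genes of the smooth muscle type, which activated fibroblasts also express, 4 were called lower, with a median log2FC of -0.60. At an unadjusted limma p under 0.05 the counts were 1 higher and 11 lower. ACTA2, smooth muscle alpha-actin, had 1642, 1674 and 1776 at 0 d and 596, 568 and 629 FPKM at 9 d (log2FC -1.51 ± 0.07, limma adjusted p = 1.9e-07). TPM2, a tropomyosin, had 64.9, 86.6 and 68.9 at 0 d and 22.4, 22.8 and 16.8 FPKM at 9 d (log2FC -1.83 ± 0.18, limma adjusted p = 4.09e-05). The other falls were LMOD1, from 11.2 to 5.13 FPKM, and SYNPO2, from 71.2 to 30.9 FPKM. TAGLN, CNN1 and MYH11, defining members of this type, had log2FC values of -0.57, 0.15 and -0.64 and were not called. TPM4, the most abundant, had 1218, 1481 and 1576 at 0 d and 1902, 627 and 2006 FPKM at 9 d, with the second 9 d library apart from its neighbours (log2FC -0.08 ± 0.51, limma adjusted p = 0.921). Its log2FC was 0.46 without 9 d replicate 2 and 0.12 after rescaling. LMOD1 lost its call with a pseudocount of 1 and after rescaling. TAGLN3, not called in the main fit (log2FC -3.51), was called lower without 0 d replicate 2 (log2FC -5.37) and without 9 d replicate 3 (log2FC -5.19).

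Skeletal muscle genes fell as a group. Of 24 tested markers 19 were called lower and 0 higher, with a median log2FC of -1.58 beside -0.19 for all rows. With limma p under 0.05 before adjustment, 0 were higher and 19 lower. After rescaling 17 were called lower. Summed over the list, the level was 2509, 2486 and 2732 FPKM at 0 d and 804, 753 and 889.6 FPKM at 9 d. MYOD1, the factor that commits cells to muscle, had 239.8, 260.2 and 303 at 0 d and 56.6, 43.2 and 63.8 FPKM at 9 d (log2FC -2.31 ± 0.20, limma adjusted p = 1.31e-05). MYOG, which drives myoblasts to differentiate, went from 10.7 to 2.47 FPKM (log2FC -2.08 ± 0.13), and MYF5 went from 14.7 to 5.70 FPKM (log2FC -1.40 ± 0.20). PAX3 lay under the filter, and PAX7, the factor of satellite cells, was not analysed here.

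Among sarcomere genes 16 of 20 fell. ACTC1, cardiac alpha-actin, which embryonic muscle also makes, was the most abundant marker among those with a row of their own. It had 909, 866 and 959 at 0 d and 232, 219 and 249 FPKM at 9 d (log2FC -1.97 ± 0.06, limma adjusted p = 1.83e-08). TNNT2, a troponin, fell most with 9.45, 9.68 and 9.5 at 0 d and 1.32, 1.05 and 1.53 FPKM at 9 d (log2FC -2.80 ± 0.15, limma adjusted p = 6.53e-07). MYL1, a myosin light chain, went from 694 to 313 FPKM (log2FC -1.15 ± 0.15), NEB, nebulin, from 121 to 39.5 FPKM (log2FC -1.61 ± 0.11), and CKM, the creatine kinase of muscle, from 133 to 26.7 FPKM (log2FC -2.32 ± 0.30). The row naming TTN, titin, beside an uncharacterised locus had 4554, 7269.6 and 3127 at 0 d and 1415, 1085 and 1137 FPKM at 9 d (log2FC -1.96 ± 0.30, limma adjusted p = 0.000595), and the row naming MYH1 and MYH2 was called lower too (log2FC -1.76). Among the members not called were TNNI2, from 0.12 to 0.12 FPKM, and the perinatal myosin MYH8, from 1.49 to 1.31 FPKM. Actin genes have near-identical coding sequences, so the split of reads between ACTA1, ACTA2, ACTC1 and ACTG2 is uncertain. Whether these falls came from fewer myogenic cells, and what part they had in the other changes, was not tested. MYL1 lost its call after rescaling.

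**Figure D3:**
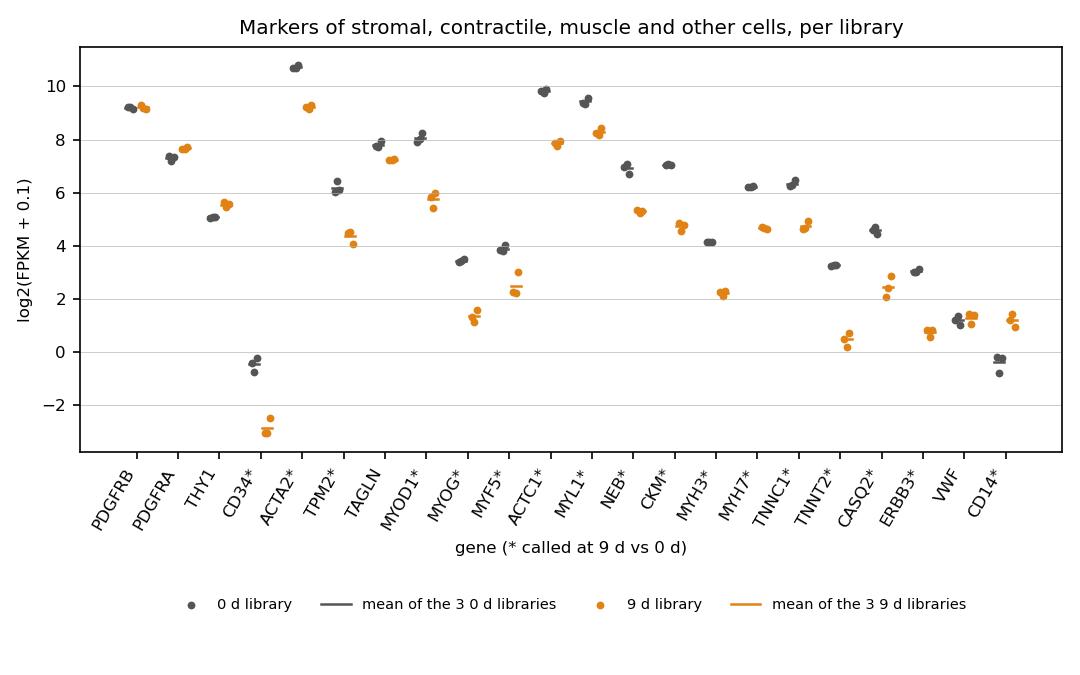
Single libraries (dots) and means (bars) at 0 d in grey and 9 d in orange, as log2(FPKM + 0.1), for stromal, contractile, skeletal muscle, Schwann, endothelial and immune markers, with a star on called genes. MYOD1, ACTC1, NEB and CKM have all 9 d libraries below 0 d, PDGFRB and VWF overlap, and CD14 rises from under 1 FPKM.

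Markers of stromal progenitors were mixed. Of 17 tested, 2 were called higher and 4 lower, with a median log2FC of 0.03. PDGFRB, the PDGF receptor of mesenchymal and mural cells and the most abundant member, had 594, 594 and 571 at 0 d and 636, 585 and 572 FPKM at 9 d (log2FC 0.03 ± 0.06, limma adjusted p = 0.749), and its log2FC was -0.02 without 9 d replicate 1. PDGFRA, the receptor that marks fibro-adipogenic progenitors, went from 159.6 to 203 FPKM and THY1 from 33.5 to 46.9 FPKM, neither called. NT5E, CD73, had 40.2, 38.4 and 41.1 at 0 d and 138, 133 and 151 FPKM at 9 d (log2FC 1.82 ± 0.06, limma adjusted p = 3.32e-08), and MME, the peptidase CD10, went from 16.6 to 36.9 FPKM. CD34, a marker of progenitors in tissue, had 0.64, 0.49 and 0.76 at 0 d and 0.02, 0.02 and 0.08 FPKM at 9 d (log2FC -2.39 ± 0.21, limma adjusted p = 1.58e-05), and CSPG4, the pericyte proteoglycan NG2, went from 201 to 82.6 FPKM (log2FC -1.28 ± 0.11). The other falls were NGFR, from 0.78 to 0.273 FPKM, and LY6E, from 0.333 to 0.013 FPKM. CD34, NGFR and LY6E lost their calls with a pseudocount of 1.

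Endothelial markers were near absent, with 4 of 11 over the filter and PECAM1 at 0.01, 0.03 and 0.01 at 0 d and 0.01, 0.01 and 0.01 FPKM at 9 d. VWF had 2.23, 2.43 and 1.94 at 0 d and 2.58, 1.97 and 2.51 FPKM at 9 d with overlapping groups, and the factor ERG was called higher, from 0.09 to 0.34 FPKM. Of 17 blood and immune markers 3 were tested, PTPRC, the pan-leukocyte CD45, and ITGAM were listed at 0 in all 6 libraries, and CD14, a lipopolysaccharide co-receptor of monocytes, was called higher with 0.78, 0.48 and 0.76 at 0 d and 2.21, 2.61 and 1.83 FPKM at 9 d (log2FC 1.59 ± 0.19, limma adjusted p = 0.000108). Schwann cell markers were lower in 2 of 3 tested genes. ERBB3, the neuregulin receptor, had 7.94, 7.95 and 8.53 at 0 d and 1.67, 1.38 and 1.68 FPKM at 9 d (log2FC -2.30 ± 0.10, limma adjusted p = 1.57e-07). ERG and CD14 lost their calls with a pseudocount of 1.

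Of 13 tested bone, cartilage and tendon markers 3 were called higher (4 after rescaling) and 1 lower, with a median log2FC of 0.10. ALPL, alkaline phosphatase, had 0.68, 1.83 and 1.09 at 0 d and 24.9, 26.1 and 24.5 FPKM at 9 d (log2FC 4.38 ± 0.28, limma adjusted p = 1.91e-06). ENPP1, which makes the mineral inhibitor pyrophosphate, went from 2.67 to 19.9 FPKM (log2FC 2.83 ± 0.19), and MGP, another inhibitor of mineral, from 0.747 to 3.62 FPKM (log2FC 2.11 ± 0.40). RUNX2, of osteoblasts, went from 32.4 to 23.8 FPKM and was not called. Under the filter lay the bone markers DMP1, listed at 0 in all 6 libraries, and BGLAP, PHEX and IBSP. The highest values of these 3 in any of the 6 libraries were 0.03, 0.02 and 0.13 FPKM. ACAN, the cartilage proteoglycan, was lower with 6.01, 8.72 and 6.31 at 0 d and 2.29, 2.83 and 2.09 FPKM at 9 d (log2FC -1.50 ± 0.52, limma adjusted p = 0.0459), a call close to the threshold. ANKH, a pyrophosphate transporter and the most abundant member, had 52.2, 52.3 and 54.3 at 0 d and 36.8, 17.7 and 36.5 FPKM at 9 d (log2FC -0.88 ± 0.30, limma adjusted p = 0.0416). ACAN lost its call with a pseudocount of 0.01, without the filter and after rescaling. ACAN lost its call without 0 d replicate 1, 0 d replicate 2, 0 d replicate 3, 9 d replicate 1, 9 d replicate 2 and 9 d replicate 3 (adjusted p from 0.0755 to 0.127), and ANKH was called without 9 d replicate 1 (log2FC -1.06) and 9 d replicate 3 (log2FC -1.05).

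Of 45 tested cell cycle genes 3 replication genes were called higher and 0 genes lower, and the median log2FC of -0.17 lay near that of all rows. They were CDC6 with 0.49, 0.44 and 0.45 at 0 d and 1.29, 1.25 and 1.35 FPKM at 9 d (log2FC 1.32 ± 0.12, limma adjusted p = 2.5e-05) and CDT1, from 0.853 to 2.13 FPKM, which both load the replicative helicase, and the helicase subunit MCM3, from 9.59 to 20.2 FPKM. The 21 replication genes had a median log2FC of 0.47 and the 24 mitosis genes one of -0.41. At an unadjusted limma p under 0.05, 0 mitosis genes were higher and 16 lower, and MKI67 went from 11.7 to 7.17 FPKM. TK1, thymidine kinase and the most abundant member, went from 193 to 217 FPKM (log2FC 0.17 ± 0.09, not called). Of 8 tested inhibitors of the cycle 2 were called lower (median log2FC -0.41), CDKN1C with 37.5, 33.2 and 40.7 at 0 d and 6.38, 7.59 and 8.1 FPKM at 9 d (log2FC -2.32 ± 0.11, limma adjusted p = 2.57e-07) and CDKN2B, from 16.6 to 6.29 FPKM. CDKN1A, the inhibitor p21 and the most abundant with a row of its own, had 32.0, 31.5 and 33.8 at 0 d and 30.0, 28.3 and 29.2 FPKM at 9 d (log2FC -0.15 ± 0.13, limma adjusted p = 0.384), and its log2FC was 0.05 after rescaling. CDC6 and CDT1 lost their calls with a pseudocount of 1. MCM3 lost its call without 0 d replicate 2 (log2FC 0.98).

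Of 18 listed complement components 14 had a row of their own and 5 were tested, of which 3 were called higher. Of 6 tested regulators 1 was lower, and the median log2FC over the list was 0.20. MASP1, a protease of the lectin pathway, had 106, 106 and 119 at 0 d and 1639.7, 1534 and 1394 FPKM at 9 d (log2FC 3.79 ± 0.09, limma adjusted p = 4.41e-09), which made it the most abundant member at 9 d. C7, part of the membrane attack complex, had 0, 0.32 and 0.11 at 0 d and 8.93, 8.85 and 13.9 FPKM at 9 d (log2FC 5.66 ± 0.42, limma adjusted p = 4.66e-06). C3, the central component, went from 0.137 to 0.853 FPKM (log2FC 2.01 ± 0.14). Of the components under the filter, C1QA, C1QC, C5 and C8A were listed at 0 in all 6 libraries. The highest values of C6, C8B and C9 in any of them were 0.05, 0.01 and 0.1 FPKM. CD55, which speeds the decay of convertases on cells, was the regulator that fell, with 7.51, 10.3 and 10.6 at 0 d and 4.02, 4.16 and 4.42 FPKM at 9 d (log2FC -1.14 ± 0.15, limma adjusted p = 0.000265). In rows naming several genes, the row of the neighbouring C2 and CFB went from 8.80 to 35.0 FPKM (log2FC 1.98 ± 0.09), and the row naming C4A went from 30.3 to 8.30 FPKM (log2FC -1.88 ± 0.16). C3 lost its call with a pseudocount of 1, and CD55 with a pseudocount of 1 and after rescaling.

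Interferon-stimulated genes had a median log2FC of -0.54, and the calls among 24 tested were 2 falls. That share lies near the 7.47% of all rows called lower. CMPK2, a mitochondrial nucleotide kinase, had 0.42, 0.27 and 0.39 at 0 d and 0.04, 0.06 and 0.06 FPKM at 9 d (log2FC -1.57 ± 0.18, limma adjusted p = 0.000117), and MX1, an antiviral GTPase, went from 1.70 to 0.557 FPKM (log2FC -1.47 ± 0.25). Before adjustment, limma gave 2 higher and 12 lower at p under 0.05. The row naming IFIT3 and other loci was called lower, from 33.9 to 9.22 FPKM (log2FC -1.87 ± 0.22). In antigen presentation 3 of 10 tested genes fell, and the median log2FC was -0.42. They were PSMB9 with 1.2, 1.1 and 1.59 at 0 d and 0.04, 0.32 and 0.53 FPKM at 9 d (log2FC -2.06 ± 0.56, limma adjusted p = 0.0154) and PSMB8, from 4.98 to 2.29 FPKM, which are subunits of the immunoproteasome, and the peptide transporter TAP1, from 13.4 to 3.99 FPKM (log2FC -1.74 ± 0.24). TAPBP, tapasin, which had the highest level among members with a row of their own, went from 30.4 to 38.6 FPKM (log2FC 0.34 ± 0.06, not called). CMPK2 and MX1 lost their calls with a pseudocount of 1, and PSMB9 with a pseudocount of 1 and with a pseudocount of 0.01, and PSMB8 with a pseudocount of 1 and after rescaling.

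Chemokines and other inflammatory mediators were more often higher: 8 of 23 tested were called higher and 2 lower, with a median log2FC of 0.65. PTX3, a secreted pentraxin, had 9.4, 11.1 and 11.5 at 0 d and 126, 105 and 98.1 FPKM at 9 d (log2FC 3.35 ± 0.10, limma adjusted p = 1.6e-08). CXCL12, a chemokine of stromal cells, went from 10.1 to 34.3 FPKM (log2FC 1.75 ± 0.06). CX3CL1, fractalkine, went from 0.04 to 1.14 FPKM (log2FC 3.08 ± 0.31), and IL33 from 0.13 to 1.36 FPKM (log2FC 2.82 ± 0.60). IL6 stayed faint with 0.07, 0.11 and 0.08 at 0 d and 0.31, 0.29 and 0.33 FPKM at 9 d (log2FC 1.14 ± 0.14, limma adjusted p = 0.000185). IL11, CCL5 and CXCL14 were called higher from means of 0.08, 0.027 and 0.023 FPKM at 0 d, all under 1 FPKM at 9 d. The falls were CXCL2 with 1.55, 1.4 and 1.41 at 0 d and 0.31, 0.48 and 0.39 FPKM at 9 d (log2FC -1.67 ± 0.13, limma adjusted p = 8.14e-06) and CXCL8, from 2.72 to 1.27 FPKM, both chemokines for neutrophils, while CXCL3 and CXCL5 were not called (log2FC values 0.10 and -0.57). CSF1, the macrophage growth factor and most abundant member, went from 386 to 626 FPKM (log2FC 0.70 ± 0.05, not called). The row naming VCAM1, an adhesion molecule for leukocytes, beside an uncharacterised locus had 0.38, 0.47 and 0.5 at 0 d and 16.8, 18.3 and 19.5 FPKM at 9 d (log2FC 5.06 ± 0.22, limma adjusted p = 1.57e-07). IL33 lost its call with a pseudocount of 0.01, and IL6, IL11, CCL5, CXCL14 and CXCL2 with a pseudocount of 1, and CXCL8 with a pseudocount of 1 and after rescaling. CXCL8 lost its call without 0 d replicate 1 (log2FC -0.97) and 9 d replicate 1 (log2FC -0.92).

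Of 18 tested prostaglandin genes 4 were called higher (5 after rescaling) and 2 lower, with a median log2FC of 0.03. PLA2G4A, the phospholipase that frees arachidonic acid, went from 10.0 to 46.8 FPKM (log2FC 2.22 ± 0.10). PTGS2, the inducible cyclooxygenase, went from 1.55 to 16.2 FPKM (log2FC 3.30 ± 0.17). PTGFR, the receptor for prostaglandin F2-alpha, had 1.82, 2.13 and 1.47 at 0 d and 29.3, 32.0 and 28.8 FPKM at 9 d (log2FC 3.995 ± 0.12, limma adjusted p = 1.81e-08), and PTGDR, a receptor for prostaglandin D2, went from 1.48 to 8.70 FPKM (log2FC 2.47 ± 0.16). PTGDS, which makes prostaglandin D2, had 30.4, 25.2 and 27.8 at 0 d and 10.6, 8.92 and 9.42 FPKM at 9 d (log2FC -1.52 ± 0.10, limma adjusted p = 3e-06). PTGIS, prostacyclin synthase and the most abundant member, had 83.5, 80.3 and 92.6 at 0 d and 33.7, 33.9 and 33.9 FPKM at 9 d (log2FC -1.33 ± 0.07, limma adjusted p = 3.3e-07).

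In Wnt signalling 4 of the 5 called rises were of secreted inhibitors. Among these, SFRP5 and DKK1 stayed under 1 FPKM on both days. The inhibitors FRZB, WIF1 and SOSTDC1 lay under the filter. FRZB had 0.29, 0.26 and 0.3 at 0 d and 0.06, 0 and 0.08 FPKM at 9 d. Of 8 tested inhibitors 4 were called higher and 1 lower, of 9 ligands and R-spondins 2 were lower, and the median log2FC over all 26 members was -0.50. SFRP4, a secreted frizzled-related protein that binds Wnt ligands, had 574, 592 and 647 at 0 d and 3688, 3748 and 3878 FPKM at 9 d (log2FC 2.64 ± 0.06, limma adjusted p = 4.41e-09). SFRP1 went from 9.22 to 30.8 FPKM (log2FC 1.74 ± 0.13) and SFRP5 from 0.04 to 0.467 FPKM (log2FC 2.01 ± 0.21). DKK1, which blocks the co-receptor LRP6, was listed at 0 in each library of 0 d, against 0.3, 0.17 and 0.19 FPKM at 9 d. NOTUM, an enzyme that inactivates Wnt ligands, was the inhibitor that fell, with 1.2, 1.06 and 1.41 at 0 d and 0.03, 0 and 0.11 FPKM at 9 d (log2FC -3.24 ± 0.25, limma adjusted p = 6.14e-06). The ligand WNT10B, which inhibits adipogenesis, went from 0.49 to 0.093 FPKM (log2FC -1.62 ± 0.15), and WNT11 went from 8.62 to 3.71 FPKM. Of the receptors FZD1 was higher, from 21.8 to 54.2 FPKM, and FZD2 lower, from 30.9 to 8.18 FPKM. SFRP5, DKK1 and WNT10B lost their calls with a pseudocount of 1, and WNT11 after rescaling. WNT11 lost its call without 0 d replicate 1, 0 d replicate 2, 9 d replicate 1 and 9 d replicate 2 (adjusted p from 0.0669 to 0.0856).

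Of 28 tested TGF-beta and BMP genes, 2 were called higher and 7 lower, with a median log2FC of -0.37, and after rescaling 3 were higher and 5 lower. BMP4, a ligand that commits precursors to the fat lineage, had 2.17, 2.19 and 2.6 at 0 d and 5.88, 12.2 and 9.3 FPKM at 9 d (log2FC 1.87 ± 0.22, limma adjusted p = 0.000109), and BMP6 had 15.3, 16 and 14.9 at 0 d and 2.49, 1.61 and 3.27 FPKM at 9 d (log2FC -2.65 ± 0.21, limma adjusted p = 6.85e-06). TGFB2 went from 10.9 to 3.33 FPKM (log2FC -1.69 ± 0.09), and CHRD, the BMP antagonist chordin, from 18.3 to 2.99 FPKM (log2FC -2.58 ± 0.17). ID3, a target of BMP signalling, went from 28.6 to 9.95 FPKM (log2FC -1.51 ± 0.09), and BMP2 and the SMAD repressor SKIL went from 1.88 to 0.87 FPKM and from 23.2 to 8.74 FPKM. CHRDL1, a chordin relative and the most abundant member, went from 1073 to 1765 FPKM (log2FC 0.73 ± 0.15, not called). The row naming SMAD6, an inhibitory SMAD, beside a tRNA gene had 212, 324 and 171 at 0 d and 52.5, 37.7 and 53.2 FPKM at 9 d (log2FC -2.26 ± 0.28, limma adjusted p = 0.000175). CRIM1, a transmembrane protein that binds BMPs and is in none of the lists, had the largest FPKM difference among called falls, with 7019, 6964 and 6748 at 0 d and 3041, 2850.4 and 3108 FPKM at 9 d (log2FC -1.20 ± 0.17, limma adjusted p = 0.000333). BMP2 lost its call with a pseudocount of 1 and after rescaling, and SKIL after rescaling, in the fit of 6 libraries and with a replicate block. BMP2 lost its call without 0 d replicate 1 (log2FC -0.95) and 9 d replicate 3 (log2FC -0.96), and SKIL lost its call without 0 d replicate 2, 0 d replicate 3, 9 d replicate 2 and 9 d replicate 3 (adjusted p from 0.0782 to 0.1).

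In the FGF system 2 of 4 tested ligands rose, and the list's median log2FC was 0.06 with 3 higher and 1 lower of 14. FGF1, a fibroblast growth factor that adipose tissue makes in response to diet, had 0.73, 0.64 and 0.65 at 0 d and 3.29, 3.48 and 5.9 FPKM at 9 d (log2FC 2.43 ± 0.28, limma adjusted p = 0.000111). FGF10, a ligand of mesenchyme, went from 3.60 to 17.6 FPKM (log2FC 2.26 ± 0.12), the row naming FGF7 and DTWD1 was called higher, from 13.2 to 35.9 FPKM, and the feedback inhibitor SPRY4 went from 14.1 to 29.9 FPKM. FGFR4, the receptor that embryonic muscle and liver express, fell with 86.6, 93.7 and 104 at 0 d and 28.1, 22.0 and 37.2 FPKM at 9 d (log2FC -1.73 ± 0.17, limma adjusted p = 3.05e-05). FGF2, the most abundant member, had 177, 28.3 and 597 at 0 d and 705, 337 and 895 FPKM at 9 d, spread over a wide range on both days (log2FC 2.05 ± 0.94, limma adjusted p = 0.119, not called). FGF2 was called without 0 d replicate 3 (log2FC 3.07). DUSP6, not called in the main fit (log2FC 2.24), was called higher in the fit of 6 libraries and with a pseudocount of 1.

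Cholesterol synthesis and uptake had a median log2FC of -0.29, and its calls were 2 falls among 22 tested (1 after rescaling). That share lies near the 7.47% of all rows called lower. TM7SF2, a sterol reductase, had 35.4, 36.0 and 40.5 at 0 d and 5.01, 6.58 and 6.52 FPKM at 9 d (log2FC -2.62 ± 0.21, limma adjusted p = 8.32e-06), and the dehydrogenase NSDHL went from 1.29 to 0.643 FPKM. At an unadjusted limma p under 0.05 the counts were 1 higher and 11 lower. Of 11 genes of cholesterol efflux and lipoproteins 3 were called higher and 1 lower, with a median of 0.34. ABCA1, the transporter that loads cholesterol onto apolipoprotein A-I, went from 298 to 958 FPKM (log2FC 1.70 ± 0.13). CH25H, which makes an oxysterol, had 6.49, 4.99 and 9.42 at 0 d and 187, 11.6 and 57.1 FPKM at 9 d, its 9 d libraries far from each other (log2FC 2.87 ± 0.78, limma adjusted p = 0.0156). The apolipoprotein APOD went from 0.503 to 1.61 FPKM. NPC1, which exports cholesterol from lysosomes, had 183, 186 and 179 at 0 d and 85.5, 74.2 and 79.8 FPKM at 9 d (log2FC -1.19 ± 0.06, limma adjusted p = 2.25e-07). LRP1, an endocytic receptor and the most abundant, went from 42272 to 53530.4 FPKM (log2FC 0.34 ± 0.06, not called). NSDHL lost its call with a pseudocount of 1, with a pseudocount of 0.01, without the filter, after rescaling and in the fit of 6 libraries, and APOD with a pseudocount of 1, and NPC1 after rescaling, and CH25H in the fit of 6 libraries. NSDHL lost its call without 0 d replicate 1 (adjusted p = 0.0965), 0 d replicate 2 (adjusted p = 0.108), 0 d replicate 3 (adjusted p = 0.0679) and 9 d replicate 1 (log2FC -0.54), and CH25H lost its call without 0 d replicate 2 (adjusted p = 0.0512).

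Glycolysis and glucose transport had a median log2FC of 0.52, and 20 of 28 members lay above the median of all rows. The calls were 5 rises and 3 falls (8 and 2 after rescaling). SLC16A3, the transporter that exports lactate, had 3.62, 4.27 and 3.49 at 0 d and 55.3, 59.7 and 50.1 FPKM at 9 d (log2FC 3.83 ± 0.22, limma adjusted p = 8.26e-07). SLC2A3, the glucose transporter GLUT3, went from 133 to 557 FPKM (log2FC 2.06 ± 0.06), and SLC2A1, GLUT1, went from 1.36 to 4.29 FPKM (log2FC 1.59 ± 0.11). SLC2A4, the insulin-responsive transporter GLUT4, went from 1.85 to 1.17 FPKM and was not called. PFKFB3, which makes an activator of glycolysis, went from 12.2 to 32.1 FPKM, and PDK1, which shuts pyruvate out of the citrate cycle, from 3.71 to 7.83 FPKM. ENO3, the enolase of muscle, had 1.03, 1.25 and 1.39 at 0 d and 0.26, 0.18 and 0.28 FPKM at 9 d (log2FC -1.96 ± 0.18, limma adjusted p = 2e-05), and ENO2 went from 0.483 to 0.147 FPKM and SLC2A8 from 4.04 to 1.88 FPKM. ENO1, the general enolase and most abundant member, had 13044, 12936 and 14398 at 0 d and 14201, 14209 and 14110.0 FPKM at 9 d with overlapping groups (log2FC 0.08 ± 0.06, limma adjusted p = 0.318). PDK1, ENO3 and ENO2 lost their calls with a pseudocount of 1, and SLC2A8 with a pseudocount of 1 and after rescaling. SLC2A8 lost its call without 0 d replicate 1 (log2FC -0.97) and 0 d replicate 3 (log2FC -0.997).

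Respiratory chain genes of the nucleus and cytosolic ribosomal proteins, which are abundant housekeeping groups, held no called member. For the respiratory chain, 0 of 69 were called by limma, and at an unadjusted p under 0.05 4 were higher and 28 lower. Its median log2FC was -0.17, and UQCRC1, a complex III subunit with the highest level, had 957, 895 and 1038 at 0 d and 786, 791 and 805 FPKM at 9 d (log2FC -0.28 ± 0.07, limma adjusted p = 0.0112). For ribosomal proteins, 0 of 66 were called by limma, and at an unadjusted p under 0.05 15 were higher and 4 lower. Their median was 0.08, and RPLP0, the most abundant, had 8304, 9002 and 9178 at 0 d and 9935, 9733 and 9685 FPKM at 9 d (log2FC 0.15 ± 0.09, limma adjusted p = 0.208). The 13 mRNAs of the mitochondrial genome were not analysed here.

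Of 24 tested genes of the amino acid stress response, the set under ATF4, 1 was called higher and 8 lower, with a median log2FC of -0.80. After rescaling, 3 were lower. DDIT3, the stress factor CHOP, had 17.7, 21.2 and 22.3 at 0 d and 4.35, 4.4 and 7.41 FPKM at 9 d (log2FC -1.94 ± 0.23, limma adjusted p = 0.000129), and TRIB3, a pseudokinase it induces, went from 60.8 to 16.6 FPKM (log2FC -1.89 ± 0.16). ASNS, asparagine synthetase, went from 256 to 114 FPKM (log2FC -1.17 ± 0.09). ATF4 itself went from 162 to 103 FPKM and was not called (log2FC -0.65). DDIT4, an inhibitor of mTORC1 that glucocorticoids also induce, was the rise, with 109, 109 and 123 at 0 d and 706, 642 and 758 FPKM at 9 d (log2FC 2.63 ± 0.07, limma adjusted p = 1.02e-08). PYCR1, a proline-making reductase and the most abundant, had 1357, 1300.0 and 1497 at 0 d and 1189.5, 1157 and 1302 FPKM at 9 d (log2FC -0.19 ± 0.07, limma adjusted p = 0.0707), and its log2FC was 0.02 after rescaling. ASNS lost its call after rescaling.

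Of 15 tested iron and heme genes 5 were called higher, with a median log2FC of 0.56. With limma p under 0.05 before adjustment, 9 were higher and 2 lower. TF, transferrin, the iron carrier of plasma, had 0, 0 and 0.15 at 0 d and 12.6, 14.6 and 15.1 FPKM at 9 d (log2FC 6.70 ± 0.30, limma adjusted p = 1.74e-07). It was the largest rise that the rule chose on the scale with a pseudocount of 0.1, to which its 0 d values lie close. FTH1, the heavy chain of the iron store ferritin, had 79.3, 78.1 and 87.7 at 0 d and 203, 209 and 209 FPKM at 9 d (log2FC 1.34 ± 0.05, limma adjusted p = 9.82e-08), while FTL, the light chain and most abundant member, went from 1249.9 to 1458 FPKM (log2FC 0.22 ± 0.10, not called). The metalloreductases STEAP1 and STEAP2 went from 1.23 to 4.40 FPKM and from 4.89 to 15.8 FPKM, and CD163, a receptor for haptoglobin and hemoglobin, from 0.65 to 3.22 FPKM. The row naming TFRC, the transferrin receptor, beside ZDHHC19 went from 74.8 to 81.1 FPKM and was not called.

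Several of the largest changes lay outside every list. CA9, a membrane carbonic anhydrase that exports acid, had 1.17, 0.99 and 1.2 at 0 d and 63.5, 66.1 and 42.4 FPKM at 9 d (log2FC 5.53 ± 0.17, limma adjusted p = 1.6e-08). SPOCK1, a secreted proteoglycan also called testican, had 7.97, 10.2 and 7.87 at 0 d and 213, 200 and 229 FPKM at 9 d (log2FC 4.61 ± 0.12, limma adjusted p = 6.47e-09). NTS, the precursor of neurotensin, had 1.17, 0.91 and 1.33 at 0 d and 30.6, 39.0 and 30.1 FPKM at 9 d (log2FC 4.76 ± 0.14, limma adjusted p = 1.63e-08). The rule that chose these 3 rises required that libraries of the days not overlap. CDH26, a cadherin, had 0.66, 0.97 and 0.89 at 0 d and 32.0, 34.6 and 30.1 FPKM at 9 d (log2FC 5.12 ± 0.24, limma adjusted p = 2.26e-07), and SERPINA11, of the serpin family, had 0.08, 0.08 and 0.5 at 0 d and 10.6, 10.2 and 7.46 FPKM at 9 d (log2FC 5.13 ± 0.43, limma adjusted p = 1.15e-05). On the scale with a pseudocount of 1, which weighs the low 0 d values less, the log2FC values were 3.84 for TF, 3.24 for DGAT2, 3.32 for C7 and 3.10 for SERPINA11, all still called.

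Other large falls were also outside the lists. KIF1A, a kinesin of axonal transport, had 58.3, 56.0 and 55.2 at 0 d and 4.92, 3.16 and 5.23 FPKM at 9 d (log2FC -3.67 ± 0.23, limma adjusted p = 1.67e-06). RIMS1, a scaffold of the presynaptic active zone, had 44.4, 44.1 and 54.0 at 0 d and 4.08, 2.91 and 4.31 FPKM at 9 d (log2FC -3.64 ± 0.21, limma adjusted p = 8.26e-07). CHRNA7, a subunit of nicotinic acetylcholine receptors, had 4.38, 5.77 and 4.96 at 0 d and 1.09, 0.27 and 0.26 FPKM at 9 d (log2FC -3.24 ± 0.78, limma adjusted p = 0.00854). As the rule that chose them required, all 3 were lower in every 9 d library. ADGRG1, an adhesion receptor coupled to G proteins, had 39.6, 37.4 and 29.1 at 0 d and 0.37, 3.34 and 1.65 FPKM at 9 d, spread at 9 d (log2FC -4.64 ± 0.68, limma adjusted p = 0.000506). KCNE5, an accessory subunit of potassium channels, had 20.04, 22.8 and 25.6 at 0 d and 0.86, 0.59 and 1.8 FPKM at 9 d (log2FC -4.40 ± 0.38, limma adjusted p = 1.37e-05). OCA2, a melanosomal membrane protein, had 29.8, 27.1 and 30.9 at 0 d and 2.72, 1.67 and 3.7 FPKM at 9 d (log2FC -3.46 ± 0.37, limma adjusted p = 6.53e-05). EFHD1, a calcium-binding protein of mitochondria, had a log2FC of -3.79 ± 0.18, FAM180A one of -3.57 ± 0.12, PLXDC1 one of -3.36 ± 0.22 and FAM149A one of -3.28 ± 0.27, and all 4 were called lower. CHRNA7 lost its call with a pseudocount of 0.01.

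**Figure D4:**
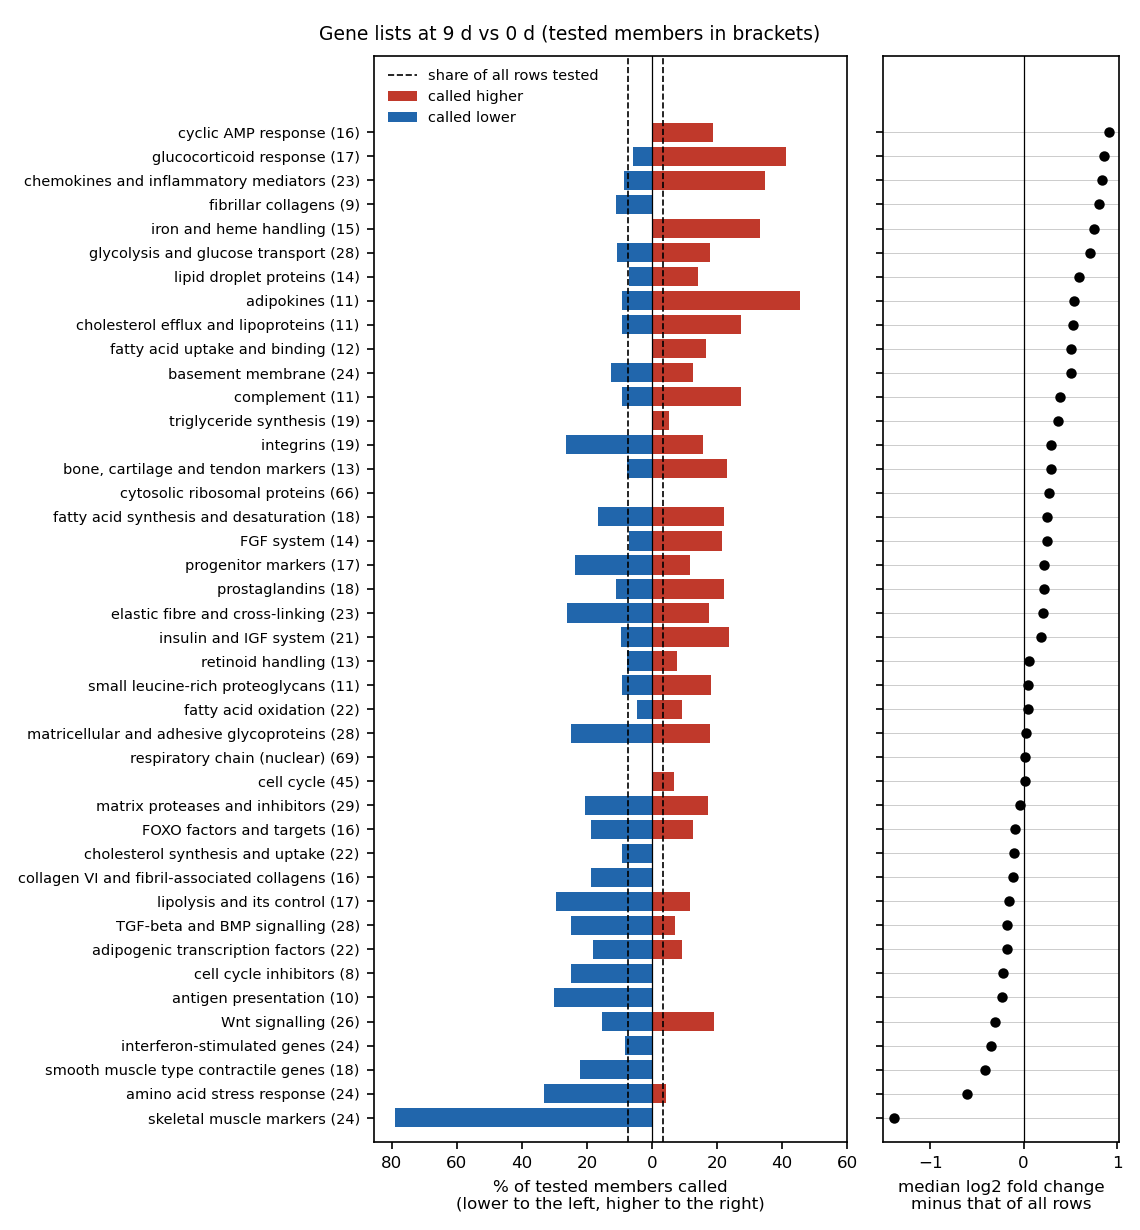
The left panel gives, for each list with at least 8 tested genes (number in brackets), the percent called higher (red, to the right) and lower (blue, to the left) at 9 d, beside dashed lines at the shares of all rows (3.41% and 7.47%), and the right panel gives the list's median log2FC minus that of all rows. Skeletal muscle markers lie lowest, at -1.39, and cyclic AMP targets highest, at 0.91.

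The days between, given only as a description since every day shares the 0 d libraries as its reference, show that many 9 d differences were not at their widest at the end. Of the 525 higher genes 149 had their highest day mean at 3 d, 92 at 6 d and 284 at 9 d. Of the 1150 lower genes 412 had their lowest day mean at 3 d, 250 at 6 d and 488 at 9 d. STC1 had day means of 0.61, 377, 46.6 and 37.5 FPKM from 0 d to 9 d, highest at 3 d. ZBTB16 had 0.343, 282, 80.2 and 12.3 FPKM and DGAT2 0.073, 21.8, 8.27 and 9.25 FPKM. Of the adipocyte markers, FABP4 had 3.3, 91.1, 26.4 and 9.07 FPKM and LPL 4.53, 10.6, 3.03 and 6.34 FPKM. ADIPOQ had 0.023, 0.723, 0.7 and 0.603 FPKM and CEBPA 0.093, 0.22, 0.07 and 0.05 FPKM. The day means of SCD were 27.1, 275, 216 and 109 FPKM, those of PLIN2 130, 668, 245 and 218 FPKM, and those of GPAM 1.89, 13.3, 3.33 and 2.93 FPKM. SPOCK1 had 8.69, 16.4, 73.3 and 214 FPKM, highest at 9 d. LAMA3 was lowest at 3 d, with 316, 2.65, 11.7 and 25.6 FPKM, and TNXB lowest at 9 d, with 154, 10.8, 2.7 and 2.21 FPKM.

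**Figure D5:**
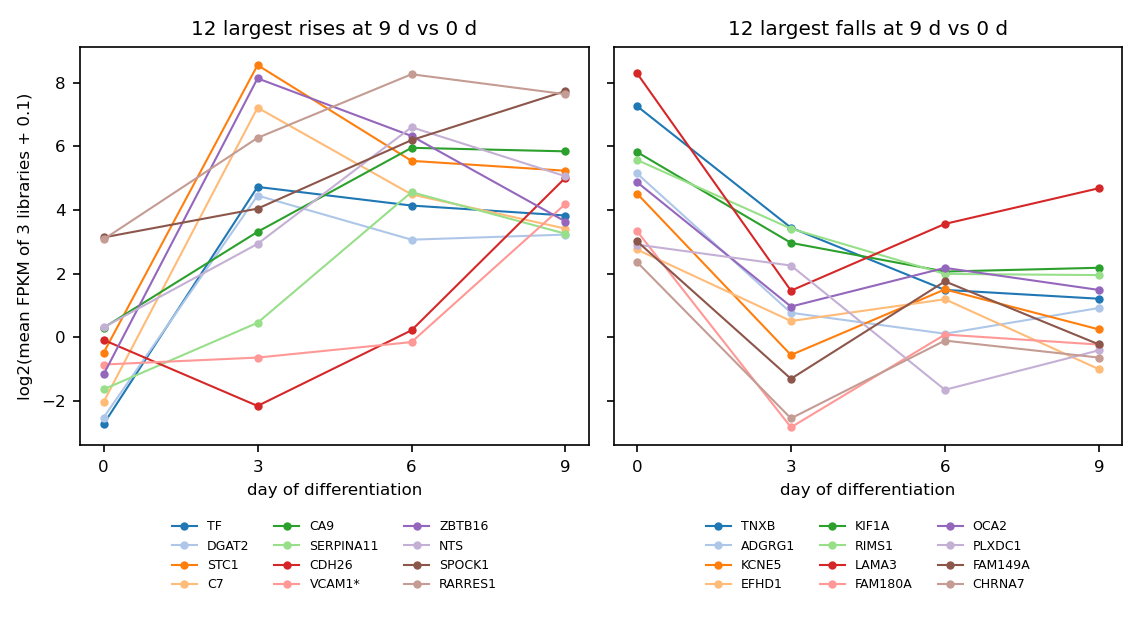
Day means (log2 of the mean FPKM of 3 libraries + 0.1) at 0, 3, 6 and 9 d for the 12 largest rises (left) and the 12 largest falls (right) of 9 d against 0 d that the naming rule chose, with a star on a row naming several genes. STC1, C7, TF and ZBTB16 are highest at 3 d and SPOCK1, CDH26 and VCAM1 at 9 d, while TNXB falls from day to day and LAMA3 is lowest at 3 d.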

How the data were processed

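By the paper, reads were mapped to the bovine genome, while the labels name the mouse build mm8, and the deposited mRNA values are FPKM, rounded to 2 decimals. No counts can be recovered from them. The paper states that the authors used edgeR with the same 2 thresholds. Here log2(FPKM + 0.1) of the 15402 rows with a mean of at least 0.1 FPKM over the 12 libraries was fitted with limma 3.58.1 in R 4.3.3, with a mean for each day and a prior variance following the mean level, and 9 d was contrasted with 0 d, so the 3 d and 6 d libraries add to the estimate of spread. The test was checked on simulated data. With 200 of 15402 rows changed by a log2 of 1.5, 81.5% were recovered and 9 unchanged rows were called. The changed rows left out the faintest and the most abundant ones, so the recovery does not cover the faintest calls. No shift of all rows between the days was simulated, so neither figure covers such a shift. Calls were made at an absolute log2FC above 1 with p under 0.05 after Benjamini-Hochberg adjustment.

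Named genes are the 12 largest called rises and the 12 largest called falls without overlap and with at least 5 FPKM on the higher day, the 6 largest called rises and falls in mean FPKM, from each list the largest called rise, the largest called fall and the most abundant member, and 17 genes of the paper or of adipocytes, 143 rows in all. The 47 lists hold 1145 genes by textbook role, of which 890 were tested, and 5 were matched by RefSeq synonyms. Some genes that the rule or the lists name are not reported here. Members and lists were chosen with earlier results of these data known. Alternatives tried: pseudocounts of 1 and 0.01, dropping the filter, a filter at 1 FPKM, libraries rescaled by their median ratio, a fit of the 6 libraries alone, a replicate block, robust estimation, rows of one name summed and each of the 6 libraries left out. Counting rows that name several genes was added after seeing the data. Python 3.11.15 with pandas 2.3.3, NumPy 2.4.6 and Matplotlib 3.10.9 made tables and figures.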

Additional observations from a re-analysis of the deposited data

How the results depend on the processing

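Over the 15 alternatives, 2131 values of the named genes were computed, of which 2071 kept their direction and their side of the threshold, 48 fell short of it, 5 passed it and 7 changed sign. With a pseudocount of 1, 888 rows were called, 311 higher and 577 lower. With a mean of at least 1 FPKM, 1114 rows were called, 736 of them lower, out of fewer rows tested. A larger pseudocount shrinks the fold change of genes with low values most, and the higher filter left fewer rows tested. The lost calls were not split by level. ECI1, with means of 17.9 FPKM at 0 d and 36.0 FPKM at 9 d, was among those lost with a pseudocount of 1. Leaving out one library at a time gave 1541 to 1684 called rows, 491 to 540 higher and 1045 to 1162 lower. Signs changed for genes with small changes: after rescaling, SPARC 0.12, TPM4 0.12, CDKN1A 0.05 and PYCR1 0.02, and with one library left out at a time TPM4 ranged from -0.38 to 0.46, ALDH1A3 from -0.01 to 0.52 and PDGFRB from -0.02 to 0.06. Beyond the rescaling, whose shift is that of the median of all rows, the cause was not tested.

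With a block for the replicate number, 1683 rows were called, 523 of them higher. Pairing by number had no visible basis: deviations from the day mean of libraries with the same number correlated across genes with r of -0.013, 0.012 and 0.068, where genes are not independent replicates. FPKM without counts leave the depth behind low values unknown, and 3 libraries a day from 1 batch of cells limit the p-values to these samples. Rows naming several genes cannot be split. Composition of the cultures was not measured, and changes of RNA amount per cell cannot be seen in FPKM.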
